A study of Ovis aries with 18 samples.

Results

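The miRNAs of the DLK1-DIO3 imprinted cluster were followed in the testes of Small Tail Han Sheep rams. Members were the known sheep miRNAs (names beginning oar-) whose name matched 1 of the miRNA families of this cluster, which gave 93 mature miRNAs from 50 precursors out of 7146 mature miRNAs listed, of which 153 carried a sheep name. The left testis was taken by surgery from different rams of 2, 6 and 12 months of age, with 3 rams per age (replicates 1 to 3), and gave a miRNA and an mRNA library per ram. The libraries of both assays carry the same letter and number. Values are whole testis values, so fewer cells of a type and less RNA per cell cannot be told apart.

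The cluster is an imprinted domain, in which genes are expressed from the chromosome of only 1 parent. The protein genes DLK1, RTL1 and DIO3 are expressed from the paternal copy. The long noncoding RNAs MEG3 and MEG8 and the miRNAs, which are cut from long transcripts, come from the maternal copy. In sheep this interval is known for the callipyge mutation, which causes muscle overgrowth. A precursor hairpin gives up to 2 mature miRNAs, named 5p and 3p after the arm, and bases 2 to 8 of a mature miRNA form the seed, by which it pairs with target mRNAs.

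In the RefSeq annotation of the assembly ARS-UI_Ramb_v3.0, which was used here for names and neighbours only, all 50 precursors were found and lay on the same chromosome. An upstream section held 8 of them, from miR-493 to miR-370, and a distal section held the other 42, from miR-379 to miR-323c. Within the upstream section, 5 precursors (miR-431, miR-433, miR-127, miR-432 and miR-136) lay inside the span of RTL1, where they are transcribed antisense to it. The hairpins of 5 further sheep miRNAs (miR-3955 to miR-3959, with 10 mature arms) lay between the members but were not part of the family list.

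The mature sequences that the results turn on are shown as deposited, in DNA letters from 5′ to 3′, with the seed in capitals. The first set holds the most abundant members, those with the opposite pattern across rams (miR-323a-3p and miR-539-3p) and those the study named as changed with age or chose for qRT-PCR.
oar-miR-376c-3p: aACATAGAggaaattccacgt
oar-miR-494-3p: tGAAACATacacgggaaacctct
oar-miR-136: aCTCCATTtgttttgatgatgga
oar-miR-379-5p: tGGTAGACtatggaacgtaggc
oar-miR-665-3p: aCCAGTAGgccgaggcccctca
oar-miR-409-3p: cGAATGTTgctcggtgaacccct
oar-miR-409-5p: aGGTTACCcgagcaactttgcat
oar-miR-495-3p: aAACAAACatggtgcacttctt
oar-miR-758-3p: tTTGTGACctggtccactaa
oar-miR-323a-3p: cACATTACacggtcgacctct
oar-miR-539-3p: aATCATACaaggacaatttcttt

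The 93 members had 81 different seeds, and 22 members shared 10 seeds with another member. None of the members shared a seed with any of the 60 other known sheep miRNAs. The second set shows the miR-376 family, in which miR-376a-3p, miR-376b-3p and miR-376d had 1 seed and miR-376c-3p and miR-376e-3p another, while the 5p arms of miR-376b and miR-376e were the same sequence.
oar-miR-376a-3p: aTCATAGAggaaaatccacgt
oar-miR-376b-3p: aTCATAGAggaaaatccatgt
oar-miR-376d: aTCATAGAggaaaatccacat
oar-miR-376e-3p: aACATAGAggaaaatccacatt
oar-miR-376b-5p: gGTGGATAttccttctatgttt
oar-miR-376e-5p: gGTGGATAttccttctatgttt
Counting positions from 1 at the 5′ end, miR-376a-3p differed from miR-376b-3p by C19T, from miR-376d by G20A and from miR-376c-3p by T2A and A14T. Such near-identical arms can exchange reads in counting, so their single counts are uncertain, and the counts of miR-376b-5p and miR-376e-5p cannot be told apart. The other shared seeds joined miR-539-3p with miR-154a-3p and miR-154b-3p, miR-379-3p with miR-411a-3p, miR-487a-3p with miR-485-3p, miR-411b-5p with miR-412-3p, miR-370-5p with miR-1193-3p, and both arms of miR-329a with those of miR-329b.

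Some libraries went against their ages. The miRNA libraries held 295282 to 5710499 counts and the mRNA libraries 8657609 to 10937143. Transcripts of 6 spermatid genes, summed as counts per 1000000 (CPM), reached 3454 CPM in 2-month replicate 1 but 32.9 and 149 CPM in the other 2-month rams, and 36.6 CPM in 12-month replicate 3 but 4146 and 3786 CPM in the other 12-month rams. The 6-month rams had 3962 to 5964 CPM. TNP1, which encodes a transition protein that replaces histones in spermatids, showed the same with 773, 2.07 and 26.1 CPM at 2 months, 747, 1477 and 837 CPM at 6 months, and 950, 731 and 2.06 CPM at 12 months. Transcripts of 7 Sertoli cell genes summed to 1073 and 795 CPM in 2-month replicates 2 and 3, to 778 CPM in 12-month replicate 3 and to 198 to 607 CPM in the other 6 rams. 12-month replicate 1 further held 159 CPM of CRISP1, a secreted protein of the epididymis, against 0 CPM in the other 8 rams, and 2558 CPM of the smooth muscle actin ACTA2 against at most 667 CPM. Of the other listed genes of epididymis and rete epithelium, PAX8, KRT19, EPCAM and CDH1 were also highest in this ram. CLU was lowest there with 2532 CPM, and ADAM28 was not raised (0.376 CPM). The sum of this list was 3360 CPM there, in a range of 2819 to 13200 CPM over all rams. Counts of calls, medians, mean shares and the changes of the members that the study named are therefore also given below without 2-month replicate 1 and 12-month replicate 3, while most other values are given over all rams only. All defining markers of testis cells that were listed had counts, and the 2 blood markers, like PRM1, PRM2 and a few others, were not analysed here.

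All 93 members had at least 1 count, and 68 had a count in each of the 9 libraries. A filter on low counts kept 59 of them, and the 34 others had only 6 to 137 counts over all libraries. The level of a tested member, as CPM of the scaled library, ranged from 7.95 to 2571 CPM in the mean over the 9 rams, with a median of 83.2 CPM. In single libraries, a count of 3 stood for 0.618 to 9.46 CPM, so that the weakest tested members lay close to what the shallow libraries could show. The 3 lowest members were miR-655-5p, miR-654-5p and miR-329a-5p, with 8, 7 and 10 counts in all. No member was among the 20 most abundant known sheep miRNAs.

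The cluster was led by a few distal miRNAs. Of the summed mean CPM, 33.8% came from the 2 most abundant members and 66.2% from the top 10. miR-376c-3p, number 32 among the known sheep miRNAs, had 1823, 2746 and 2386 CPM at 2 months, 2464, 2153 and 3127 CPM at 6 months, and 1876, 3174 and 3388 CPM at 12 months. Its levels overlapped at all ages, and its highest ram exceeded its lowest by only 1.86-fold. miR-494-3p had 1138, 2690 and 2934 CPM at 2 months, 2165, 1059 and 1797 CPM at 6 months, and 1095, 1911 and 3592 CPM at 12 months. miR-136, the most abundant member antisense to RTL1, had 534, 1573 and 1105 CPM, then 1004, 694 and 640 CPM, and then 854, 651 and 1393 CPM. In the last 2, the 2-month replicates 2 and 3 and the 12-month replicate 3 were the 3 highest rams. Next came miR-376b-3p, miR-379-5p, miR-411a-5p, miR-376e-3p, miR-665-3p, miR-323a-3p and miR-409-3p, with means of 641, 633, 509, 507, 452, 389 and 344 CPM. For the 54 members with more than 3 counts in every library, the highest ram exceeded the lowest by a median of 3.13-fold, against 2.77-fold for 52 other known sheep miRNAs.

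The cluster held a small share of all known sheep miRNA counts. At 2 months it held 3.39% (95% Wilson interval 3.31 to 3.47), 4.08% (4.04 to 4.12) and 4.55% (4.51 to 4.60), with a mean of 4.01% ± 0.585 (SD, n = 3). At 6 months the shares were 3.37% (3.30 to 3.45), 2.72% (2.66 to 2.77) and 3.59% (3.49 to 3.70), with a mean of 3.23% ± 0.457 (SD, n = 3). At 12 months they were 1.38% (1.35 to 1.41), 3.51% (3.43 to 3.60) and 3.49% (3.47 to 3.51), with a mean of 2.79% ± 1.22 (SD, n = 3). The ages overlapped, apart from 1 ram far below the rest, 12-month replicate 1. The separate mRNA library of this ram held CRISP1 and the most ACTA2, and a link of these to the share was not tested. Without 2-month replicate 1 and 12-month replicate 3, the means were 4.32% at 2 months and 2.44% at 12 months. Without 12-month replicate 1 the 12-month mean was 3.50%, above that at 6 months, so that the order of these ages rests on that ram. The intervals cover counting error only and not the spread between rams, and reads were counted without molecular identifiers.

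**Figure D1:**
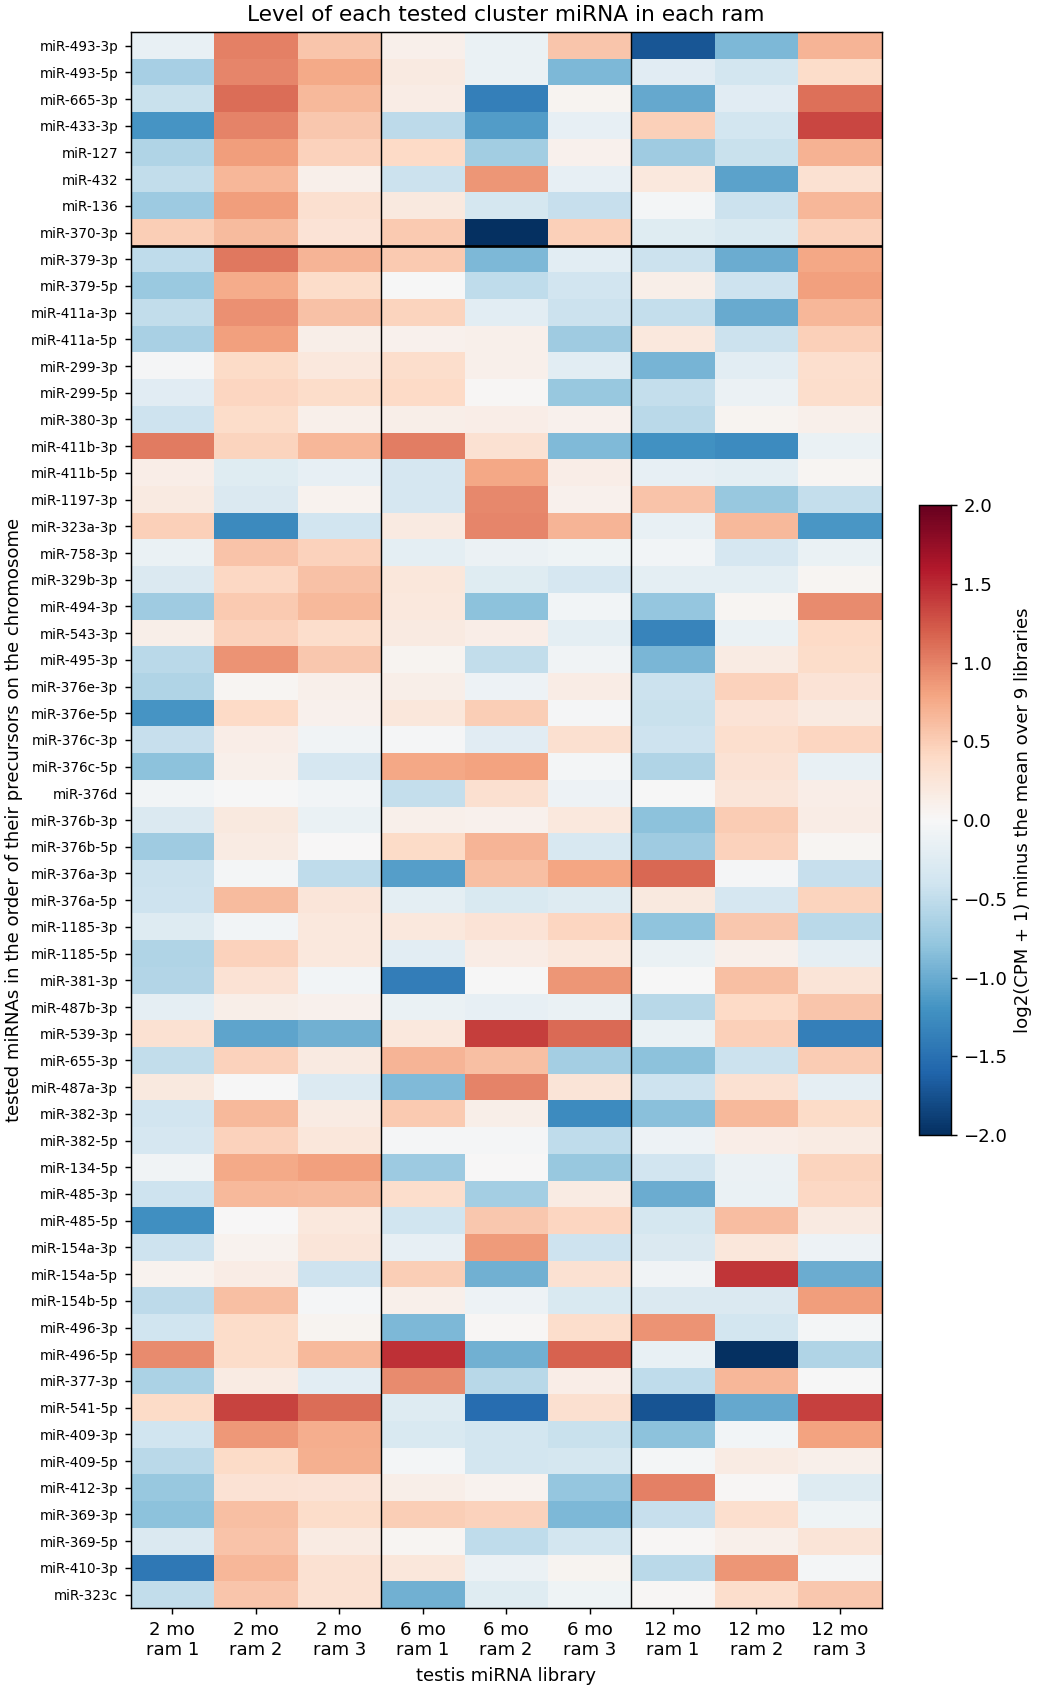
Level of the 59 tested members (rows, in the order of their precursors on the chromosome, with a black line between the upstream and the distal section) in the 9 testis libraries (columns), as log2(CPM + 1) minus the mean of each row. 18 rows have their 3 highest values in 2-month replicates 2 and 3 and 12-month replicate 3, and the rows of miR-323a-3p and miR-539-3p have their 3 lowest values there.

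Members tended to be high in the same rams, and these were not the rams of 1 age. Of the 59 tested, 23 (38.98%) had their highest level in 2-month replicate 2, against 12.38% of all miRNAs tested. The lowest level lay in 2-month replicate 1 for 16 members (27.12%), against 13.73% of all tested. It lay in 12-month replicate 1 for 13 members (22.03%), against 14.76%. The most frequent set of 3 highest libraries was 2-month replicates 2 and 3 with 12-month replicate 3, which held for 18 of 59 members (30.5%), against 53 of all 969 miRNAs tested (5.47%). These 18 were miR-493-5p, miR-665-3p, miR-433-3p, miR-127 and miR-136 of the upstream section, and miR-379-5p, miR-379-3p, miR-411a-3p, miR-494-3p, miR-543-3p, miR-495-3p, miR-376a-5p, miR-382-5p, miR-134-5p, miR-485-3p, miR-541-5p, miR-409-3p and miR-369-5p of the distal section. The 3 rams are those with the fewest spermatid and the most Sertoli cell transcripts. Their miRNA libraries were also the 3 deepest, with 2356020, 1944556 and 5710499 counts against 295282 to 1400436 in the other rams. The part of either in the miRNA levels was not tested. The summed level of all members was 9444, 17727 and 15570 CPM at 2 months, 13608, 11508 and 12775 CPM at 6 months, and 10011, 13777 and 18312 CPM at 12 months. It was highest in the same 3 rams, as was the share of all listed miRNA counts (1.85%, 1.95% and 1.56%). This depended on the measure. As a share of the known sheep miRNA counts, 12-month replicate 3 (3.49%) lay below 6-month replicate 3 (3.59%) and 12-month replicate 2 (3.51%). As a description over 9 libraries, which share depth and scaling, the median Pearson correlation of log2 CPM between pairs of members was 0.274, that between pairs of 53 other known sheep miRNAs was 0.392 and that between a member and another known miRNA was 0.0872.

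**Figure D2:**
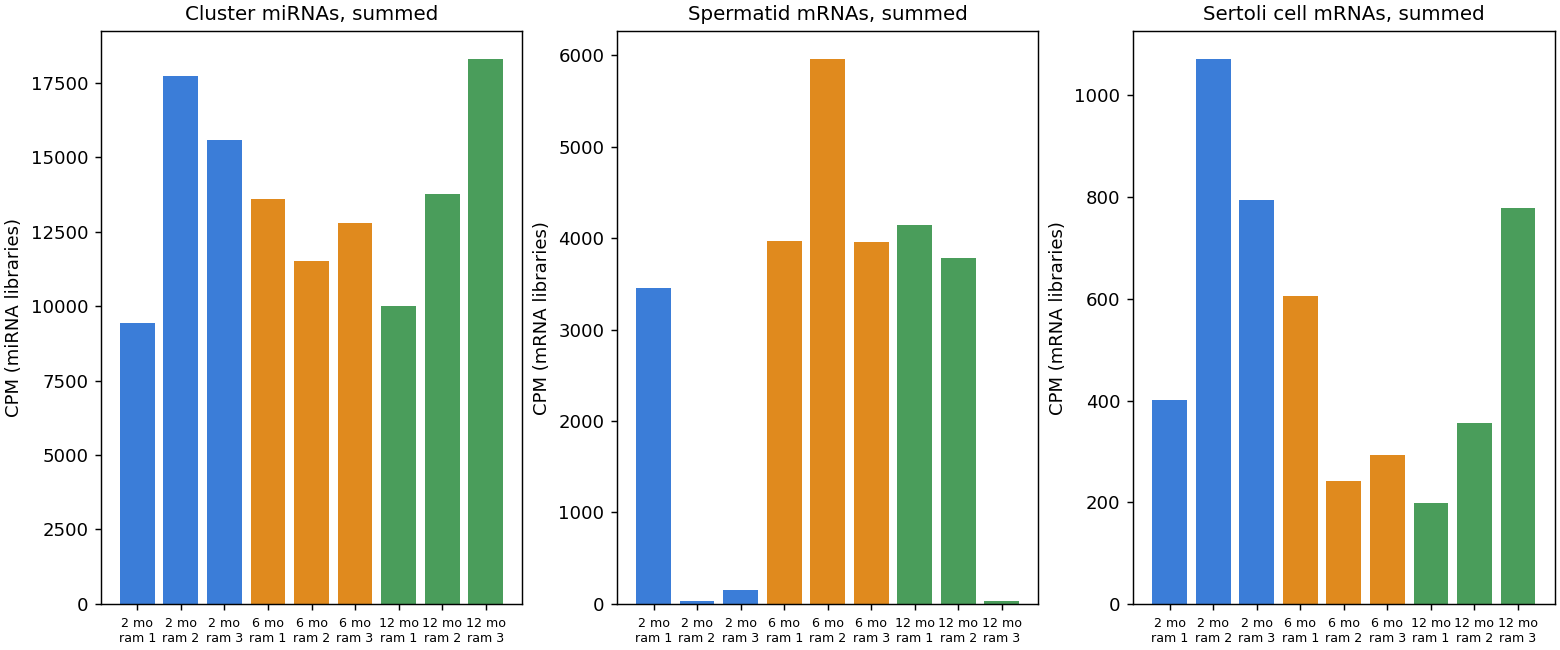
Summed CPM of the 93 members in the miRNA libraries (left), and of 6 spermatid (middle) and 7 Sertoli cell genes (right) in the mRNA libraries, 1 bar per ram and 1 colour per age. The 3 rams with the highest cluster sums (17727, 15570 and 18312 CPM) have the lowest spermatid sums (32.9, 149 and 36.6 CPM).

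In 2 members the same 3 rams, whose miRNA libraries were the deepest, were the lowest instead. miR-323a-3p had 480, 141 and 262 CPM at 2 months, 390, 674 and 552 CPM at 6 months, and 310, 540 and 153 CPM at 12 months. miR-539-3p, a weak member with 9 to 27 counts per library, had 17.2, 6.10 and 6.58 CPM, then 16.2, 37.8 and 31.5 CPM, and then 12.6, 19.7 and 4.74 CPM. This set of 3 lowest libraries was found in 2 of 59 members (3.39%) and in 105 of all 969 tested (10.8%), so it was less frequent among the members. The raw counts followed depth little. In these 3 rams miR-539-3p had 15, 16 and 23 counts, against 9 to 27 in the others. miR-323a-3p had 347, 637 and 742 counts in them, against 175 to 482 in the others. The part of depth in this order was not tested. The precursor of miR-323a lies 6 places after that of miR-379 in the same section, yet the count of miR-323a-3p divided by that of miR-379-5p, a ratio within a library that does not depend on scaling, was 1.36, 0.142 and 0.342 at 2 months, 0.660, 1.62 and 1.22 at 6 months, and 0.484, 1.22 and 0.147 at 12 months. This pair was chosen after its values were seen, for its opposite orders, so the ratio only restates them. miR-323c, which differs from miR-323a-3p by T5A and A16G, did not share this order, with 9.27 to 20.3 CPM at 2 months and 13.7 to 19.98 CPM at 12 months.

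**Figure D3:**
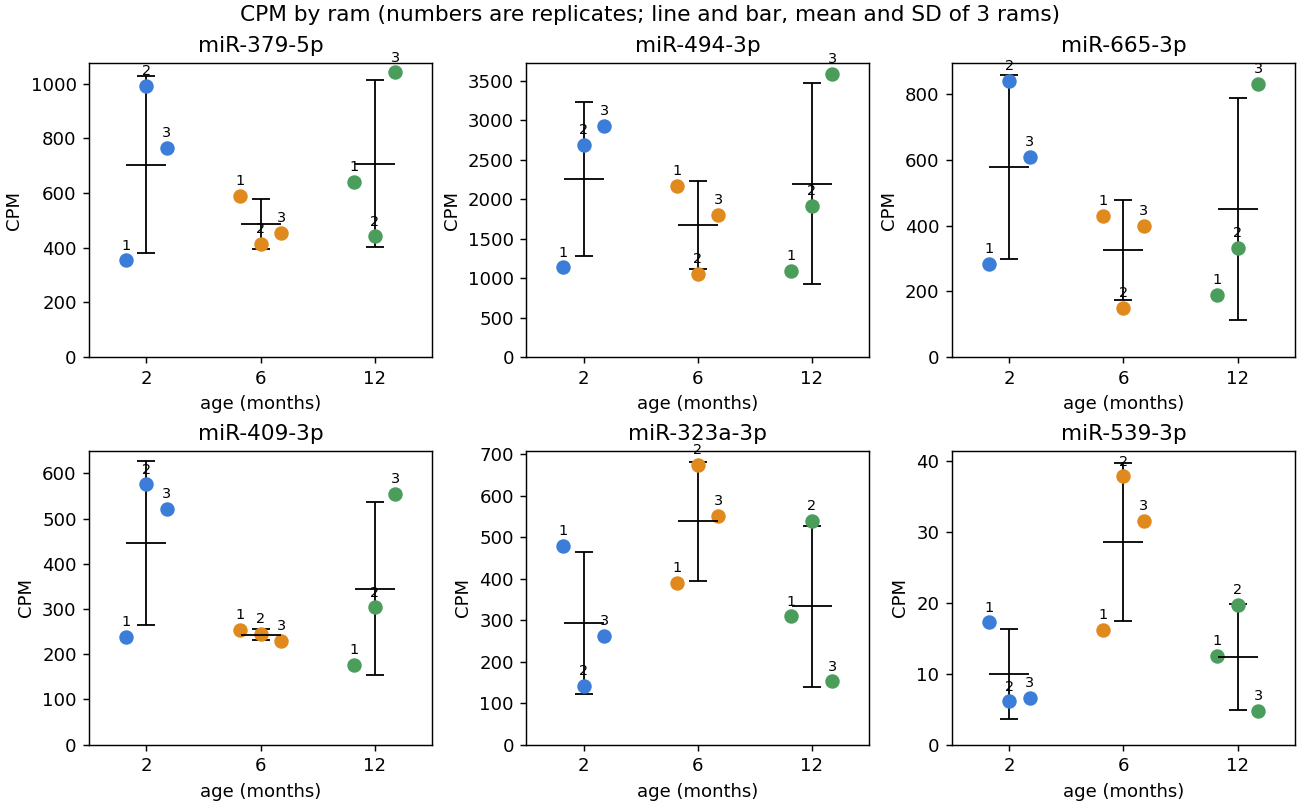
CPM (linear axis from 0) of 6 members in each ram by age in months. Points are rams, numbered by replicate, and lines with bars are means and SD of 3 rams. In miR-379-5p, miR-494-3p, miR-665-3p and miR-409-3p the points 2 and 3 at 2 months and 3 at 12 months lie highest, and in miR-323a-3p and miR-539-3p they lie lowest.

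The main question of the study's design was which miRNAs differ between ages, and no member passed the test in any comparison. A call needed an adjusted p under 0.05 over all 969 miRNAs tested (edgeR's quasi-likelihood test with Benjamini-Hochberg adjustment) and a change of more than 1.5-fold. It was met by 0 of 59 members in 2- vs. 6-month-old, 6- vs. 12-month-old and 2- vs. 12-month-old testes, where the background was 0.0%, 0.0% and 0.0% of all tested, and DESeq2's Wald test also called 0 members, with a background of 0.0%, 0.826% and 0.31%. At an unadjusted p under 0.05 there was 1 member in 2 vs. 6 months (background 6.5%), 0 in 6 vs. 12 months (background 10%) and 0 in 2 vs. 12 months (background 4.85%). All 3 comparisons share their groups in pairs, so they are not independent.

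The changes of the members were small and of both signs. Fold changes are given as log2 of the older over the younger age. Their median over the 59 members was -0.17 in 2 vs. 6 months, 0.09 in 6 vs. 12 months and -0.08 in 2 vs. 12 months, and the same over all 969 tested was 0.05, 0.05 and 0.11. Values below 0 were found in 37, 29 and 37 of 59 members (62.71%, 49.15% and 62.71%), against 47.57%, 47.27% and 39.11% of all tested. Without 2-month replicate 1 and 12-month replicate 3, which was tried after seeing the data, the medians became -0.39, -0.19 and -0.48 against 0.09, -0.04 and 0.15 over all tested. In that fit 7, 1 and 10 of 61 members (11.5%, 1.64% and 16.4%) had an unadjusted edgeR p under 0.05. The background was 15.2%, 8.28% and 14.9% of all tested, and the smallest edgeR adjusted p of a member was 0.196. The 10 in 2 vs. 12 months, a share near the background, all had a lower value at 12 months. They were miR-127, miR-493-5p, miR-493-3p, miR-665-3p, miR-379-3p, miR-411a-3p, miR-543-3p, miR-485-3p, miR-541-5p and miR-409-3p. Most of them had their highest levels in 2-month replicates 2 and 3 and 12-month replicate 3, so the omission lowered their change by construction.

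**Figure D4:**
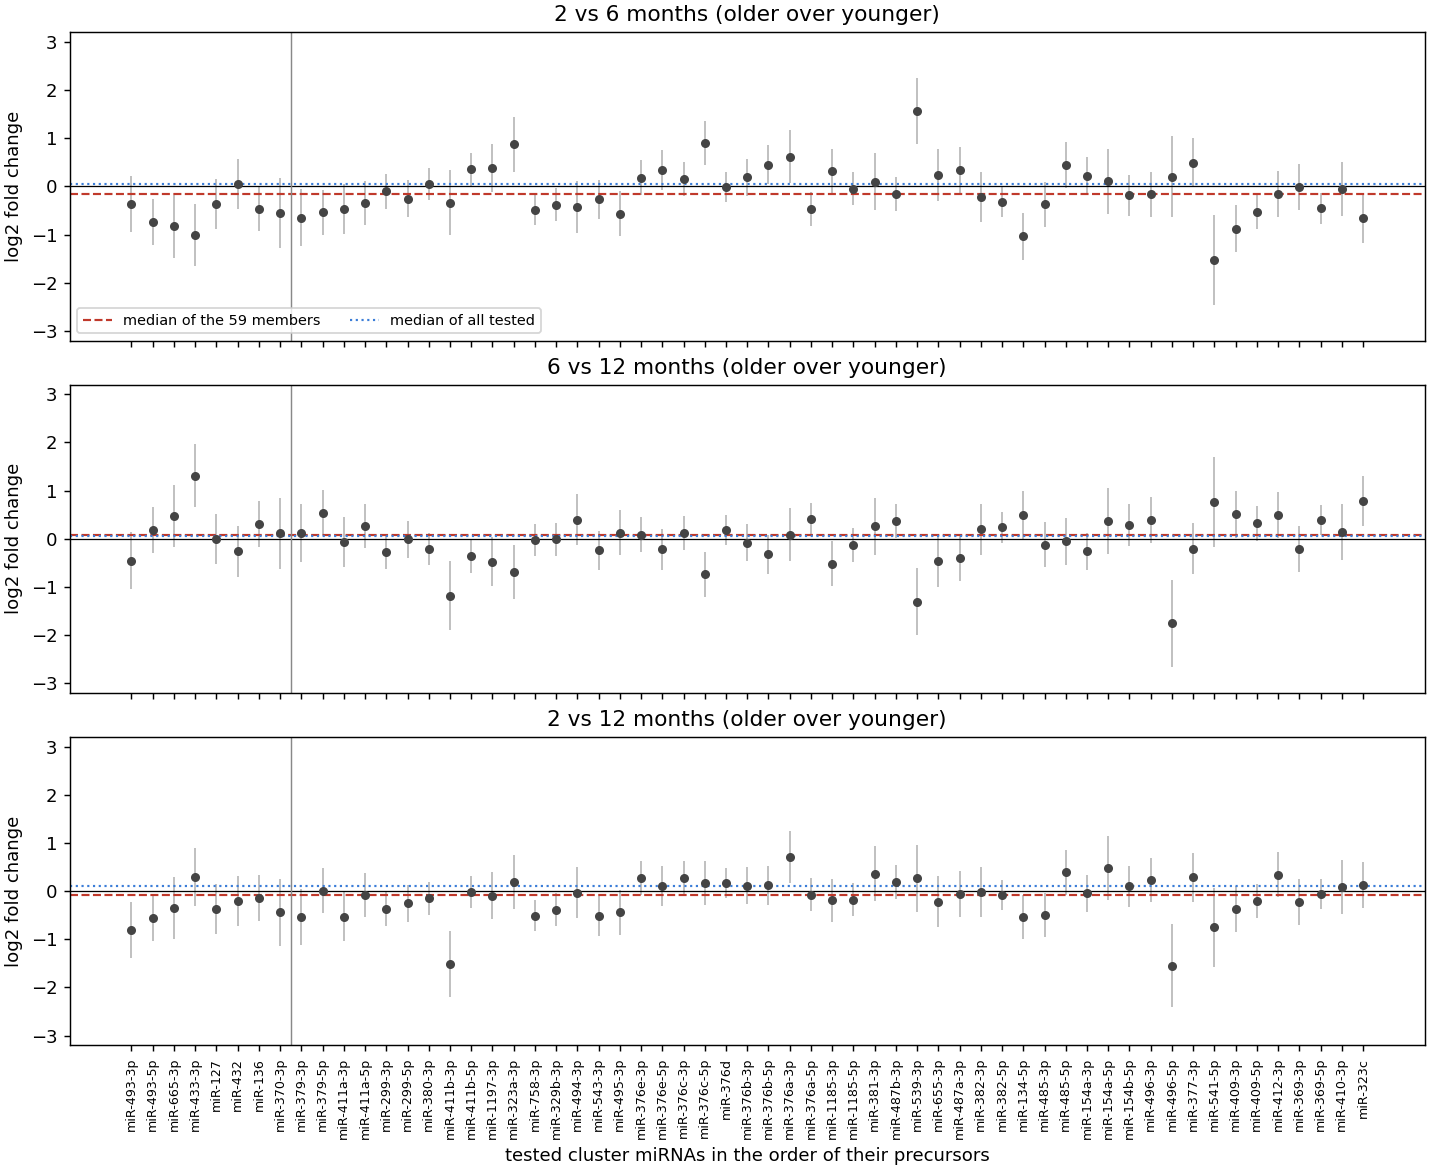
Log2 fold change (older over younger age) of the 59 tested members in chromosome order, with standard errors (SE) as bars, for the 3 comparisons. Dashed lines are the medians of the members (-0.17, 0.09 and -0.08) and dotted lines those of all 969 tested miRNAs (0.05, 0.05 and 0.11), and no member passed the call.

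The smallest unadjusted p-values were found among weak members. In 2 vs. 6 months, miR-539-3p had a change of 1.57 on the log2 scale (SE 0.685, edgeR adjusted p = 0.738), with 1 of the 6-month rams below 1 of the 2-month rams. miR-134-5p had 15.9, 28.9 and 30.0 CPM at 2 months and 9.70, 16.8 and 9.46 CPM at 6 months, which gave -1.04 (SE 0.490) on the log2 scale. miR-376c-5p had 10.6, 21.2 and 15.2 CPM and then 34.0, 35.0 and 18.9 CPM, which gave 0.90 (SE 0.461). None of these separated the ages. In 6 vs. 12 months the smallest were those of miR-433-3p with 1.31 (SE 0.647), miR-496-5p with -1.75 (SE 0.908) and miR-539-3p with -1.31 (SE 0.694), at adjusted p = 0.515, 0.516 and 0.524. For miR-433-3p the 12-month value rested on replicate 3, which had 73.5 CPM against 40.0 and 21.8 CPM in the others, and without that ram and 2-month replicate 1 the log2 fold change was 0.72. In 2 vs. 12 months they were those of miR-411b-3p with -1.52 (SE 0.682), miR-496-5p with -1.55 (SE 0.866) and miR-758-3p with -0.51 (SE 0.320), each at adjusted p = 1.0.

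Few of the 59 tested members had rams that did not overlap between ages. In 2 vs. 6 months, all older rams lay above all younger ones for 1 of 59 members, miR-1185-3p (background 4.13%), and below them for 1 of 59, miR-541-5p (background 9.7%). In 6 vs. 12 months this was so for 1 of 59 above, miR-323c (background 10.5%), and for 0 of 59 below (background 3.72%). In 2 vs. 12 months there were 0 of 59 above (background 4.54%) and 2 of 59 below, miR-496-5p and miR-411b-3p (background 2.79%). miR-411b-3p had 14.6, 9.36 and 11.1 CPM at 2 months and 2.29, 2.18 and 5.97 CPM at 12 months, where 2 libraries held only 2 and 1 counts. miR-496-5p had 13.2, 8.54 and 10.7 CPM at 2 months and 5.71, 0 and 3.91 CPM at 12 months, where the ram at 0 could have held up to 6.55 CPM by the limit of 3 counts. miR-541-5p had 13.2, 26.8 and 22.6 CPM at 2 months, 8.08, 2.80 and 12.6 CPM at 6 months, and 2.29, 4.37 and 27.0 CPM at 12 months. These are among the weakest members, and their shares lie at or below the background in all but the last of the comparisons, where 2 of 59 is 3.39%.

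The members that the study itself named as changed or chose for qRT-PCR, which makes their direction no independent evidence, were higher at 2 months in 2 of 3 rams. miR-379-5p had 354, 993 and 766 CPM at 2 months, 590, 416 and 454 CPM at 6 months, and 640, 441 and 1041 CPM at 12 months. miR-409-3p had 238, 575 and 522 CPM, then 254, 245 and 230 CPM, and then 177, 304 and 554 CPM. miR-665-3p had 285, 841 and 608 CPM, then 429, 150 and 400 CPM, and then 190, 332 and 832 CPM. In each of them 2-month replicate 1 lay within or near the range of the 6-month rams, and 12-month replicate 3 lay at the level of 2-month replicates 2 and 3. miR-495-3p had 155, 421 and 327 CPM at 2 months and 235, 161 and 214 CPM at 6 months, and miR-409-5p had 130, 249 and 312 CPM and then 184, 147 and 148 CPM. The qRT-PCR primer that the paper lists for miR-409-5p carries the sequence of miR-409-3p shown above, so the arm it measured is uncertain. miR-758-3p had 30.5, 50.05 and 46.0 CPM at 2 months and 32.0, 26.2 and 30.5 CPM at 12 months. Over all rams, the log2 fold changes in 2 vs. 6 months were -0.53 for miR-379-5p, -0.87 for miR-409-3p, -0.83 for miR-665-3p, -0.57 for miR-495-3p and -0.53 for miR-409-5p, each at an edgeR adjusted p = 0.738, and that of miR-758-3p in 2 vs. 12 months was the -0.51 given above. Without 2-month replicate 1 and 12-month replicate 3, an omission chosen after seeing the data, they were -0.84 for miR-379-5p, -1.16 for miR-409-3p, -1.14 for miR-665-3p, -0.86 for miR-495-3p, -0.80 for miR-409-5p and -0.74 for miR-758-3p. The adjusted p-values of edgeR in that fit lay between 0.229 and 0.458, so that none was called. In each of these members 2-month replicate 1 was the lowest of the 2-month rams. Leaving it out therefore raised the 2-month level by construction, so the larger changes add no evidence. The 12-month rams left in that fit were replicates 1 and 2, and the mRNA library of the first held CRISP1 and the most ACTA2.

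The summed level of the upstream section spread more widely over the rams than that of the distal one, as a description without a test. The 5 miRNA precursors antisense to RTL1 summed to 728, 2124 and 1518 CPM at 2 months, 1366, 912 and 964 CPM at 6 months, and 1077, 893 and 1900 CPM at 12 months. Besides miR-136, they included miR-127 with 159, 432 and 331 CPM, then 317, 148 and 255 CPM, and then 146, 177 and 390 CPM. miR-433-3p had 11.9, 57.8 and 41.5 CPM, then 19.4, 12.6 and 25.2 CPM, and then 40.0, 21.8 and 73.5 CPM. miR-432 had 13.1 to 53.2 CPM without a common order, and miR-431, with 111 counts in all, was not tested. Summed over the section, upstream members had 1200 to 3458 CPM and distal members 8244 to 15233 CPM. The distal sum was 6.87, 4.13 and 5.15 times the upstream sum at 2 months, 5.55, 7.99 and 7.04 times at 6 months, and 5.93, 8.81 and 4.95 times at 12 months. The ratio overlapped between all ages, and it was lowest in the 3 rams with the highest cluster sums.

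The sheep miRNAs that lie between the members were also summed and set beside the cluster. The 10 arms of miR-3955 to miR-3959 together had 560, 915 and 780 CPM at 2 months, 724, 748 and 674 CPM at 6 months, and 587, 719 and 858 CPM at 12 months. This was 0.0469 to 0.0650 times the sum of the members in every ram, and no other set of miRNAs was compared in this way. Of these arms, miR-3959-5p had 237, 592 and 436 CPM at 2 months and 580 CPM in 12-month replicate 3, whereas miR-3958-3p was highest in 6-month replicate 2 with 410 CPM and lowest in 12-month replicate 3 with 166 CPM. Among the 53 other known sheep miRNAs tested, those most like the median of the members by Spearman's rho over the 9 libraries were miR-16b (0.667), miR-3959-5p (0.567), miR-3957-3p (0.567), miR-25 (0.567) and miR-150 (0.517). This is a description of 9 libraries that share their scaling. Among the members themselves the rho with their median was below 0 for 9 of 59, the lowest being that of miR-376a-3p (-0.483).

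The arms of a precursor were used unequally, and mostly in the same way in each ram. Both arms were listed for 43 precursors, of which 29 gave more 3p and 14 more 5p counts, and in 22 of them 1 arm held over 90% of the counts. The same arm was ahead in all 9 libraries for 31 precursors. miR-494 and miR-376c were almost all 3p, with shares of 99.9% and 99.3% over all libraries, and miR-379 gave 4.26% to 8.98% of 3p. miR-376a stood between, with 35.9%, 26.3% and 25.4% of 3p at 2 months, 23.2%, 52.1% and 54.4% at 6 months, and 52.8%, 41.7% and 23.2% at 12 months. The Wilson interval of its highest share was 42.7 to 65.7% and that of the 23.2% at 6 months was 15.4 to 33.4%. These intervals cover counting error only, and the count of miR-376a-3p is uncertain because near-identical arms can exchange reads. miR-493 gave 25.0% to 35.7% of 3p at 2 months, 51.7% (39.3 to 63.8) in 6-month replicate 3 and 11.7% (7.45 to 18.0) in 12-month replicate 1. miR-409 gave 62.6% to 69.8% of 3p at 2 months, 57.9% to 62.5% at 6 months and 49.0% to 73.1% at 12 months. In an exact two-sided permutation test of the log2 arm ratio between ages, over 129 tests, the smallest p was 0.1, which is the smallest that 3 against 3 rams allow, and the smallest adjusted p was 0.823.

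**Figure D5:**
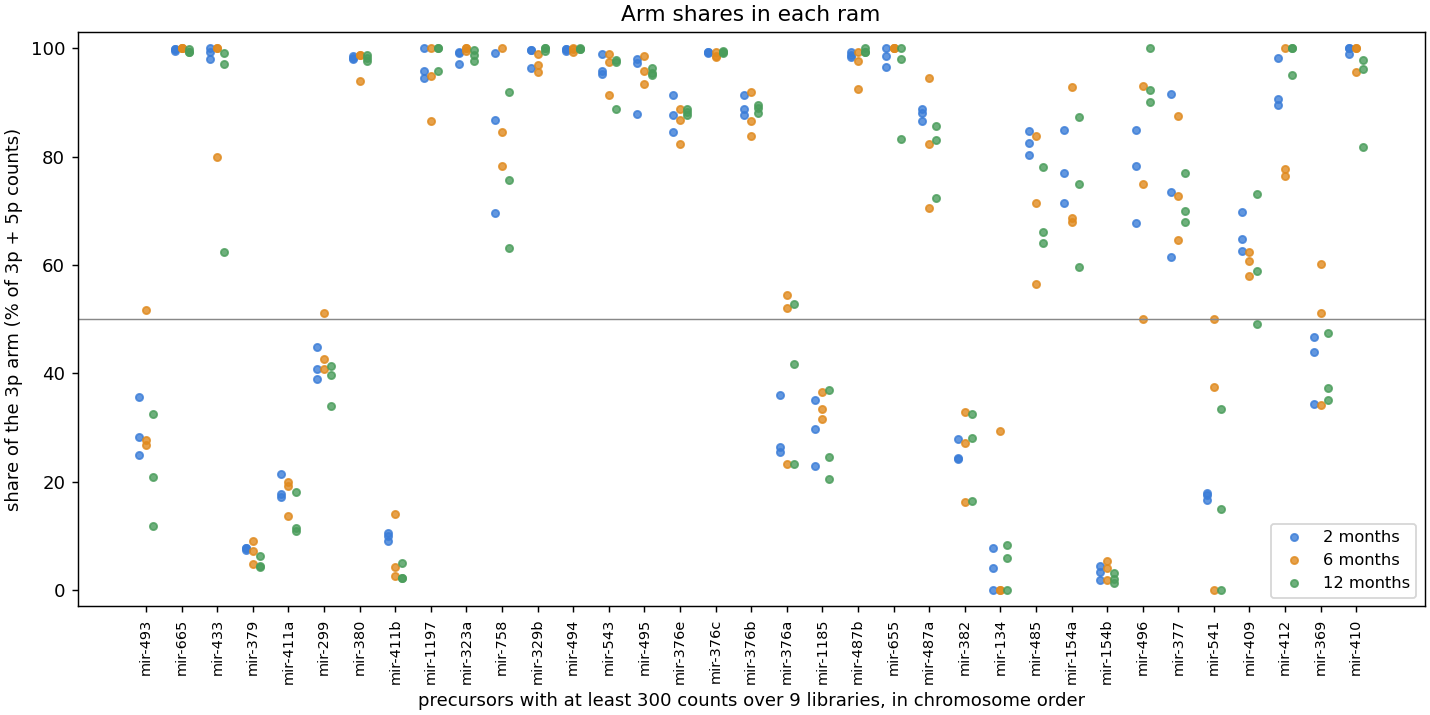
Share of the 3p arm in the 3p and 5p counts (%, vertical axis) of the 35 precursors with at least 300 counts and both arms listed, 1 point per ram coloured by age. Most precursors keep to 1 side of the line at 50%, while miR-376a ranges from 23.2% to 54.4%.

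The protein genes of the domain were weakly expressed in the mRNA libraries. DLK1, a membrane protein of the Notch ligand family, had 4.33, 3.74 and 8.49 CPM at 2 months, 1.86, 5.76 and 9.68 CPM at 6 months, and 4.13, 4.18 and 9.07 CPM at 12 months. RTL1, a protein derived from a retrotransposon, had 0.10 to 1.43 CPM, and DIO3, which inactivates thyroid hormone, had 0 to 0.398 CPM. BEGAIN was listed at 0 in all libraries, and the noncoding MEG3, MEG8 and MEG9 were not analysed here. DLK1 did not follow the order of the miRNA sums, since 2-month replicate 2 was among its lower rams. Of the flanking genes, WDR25 had 5.27 to 13.04 CPM, WARS, a tRNA synthetase, had 248 to 519 CPM and DYNC1H1, the heavy chain of dynein, had 898 to 1291 CPM. PPP2R5C, a regulatory subunit of the phosphatase PP2A, had 488, 64.0 and 182 CPM at 2 months, 492, 620 and 502 CPM at 6 months, and 434, 593 and 77.6 CPM at 12 months, with the 3 rams of the highest cluster sums lowest. None of the 5 tested of 12 locus genes was called in any comparison by edgeR's test over 14921 mRNAs, where the background was 0.0%, 0.0% and 0.0%. At an unadjusted p under 0.05 there were 0 of 5 in each, and DESeq2 also called 0. Without 2-month replicate 1 and 12-month replicate 3, PPP2R5C was called in 2 vs. 6 months (log2 fold change 2.13, SE 0.485, adjusted p = 0.0249) and in 2 vs. 12 months (2.07, SE 0.509, adjusted p = 0.0373), as 1 of 5 locus genes in each. The background in that fit was 15.3% and 12% of all mRNAs tested, so 1 of 5 is not a result about the locus.

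Genes that act on imprints and genes of other imprinted domains were looked at beside the cluster. Of 15 regulators, among them the imprint keeper ZFP57, the DNA methyltransferases and the MEF2 factors, 14 were tested and 0 were called. At an unadjusted p under 0.05 there was 1 in 2 vs. 6 months, MEF2D with -0.52 (background 4.07%), 1 in 6 vs. 12 months, ZNF445 with 0.81 (background 6.87%), and 0 in 2 vs. 12 months (background 2.67%). Their median log2 fold changes were -0.37, 0.17 and 0.05, against -0.06, 0.05 and 0.07 over all mRNAs tested. Of 22 other imprinted genes 15 were listed, 14 were tested and 0 were called, while an unadjusted p under 0.05 was reached by IGF2 with -2.20 in 2 vs. 6 months, by IGF2, NDN and PLAGL1 with 2.20, 0.97 and 1.33 in 6 vs. 12 months, and by 0 in 2 vs. 12 months. The medians of this list were -0.72, 0.53 and 0.03. PEG10, a retrotransposon-derived gene needed to form the placenta, had 291, 1002 and 580 CPM at 2 months, 419, 207 and 257 CPM at 6 months, and 195, 333 and 774 CPM at 12 months, and IGF2 had 8.97, 63.7 and 28.6 CPM, then 10.03, 5.98 and 6.00 CPM, and then 60.3, 9.23 and 31.6 CPM. PEG10 thus was highest in the same 3 rams as the cluster, whereas IGF2 was also high in 12-month replicate 1. Genes of this list went both ways. GRB10, ZIM2 and NAP1L5 were also highest in these 3 rams, but MEST and CDKN1C were lowest there. CDKN1C had 0.716, 0.437 and 0.763 CPM in them, against 2.08 to 5.76 CPM in the other rams. A link between this list and the cluster was not tested.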

How the data were processed

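The authors mapped small RNA reads to sheep miRBase, predicted further miRNAs from the Oar_v3.1 genome with miRDeep, and searched what was left against human, rat and mouse miRNAs with BWA. The deposited tables hold raw counts per mature miRNA and per gene. The aligner, counter and strand setting of the mRNA table are not given in the sources used here. Value columns with no sample numbered 0. CPM are counts per 1000000 of the library size scaled by the upper quartile (miRNA) or TMM (mRNA). Differences between ages were tested with edgeR 4.0.16 (R 4.3.3; quasi-likelihood, filterByExpr, all 9 libraries), with DESeq2 1.42.0 as an alternative. The EB-Seq method of the study was not run. The fit was tested on simulated data. Exact permutation tests and Wilson intervals used scipy 1.17.1. Members were described by fixed rules: the 10 most and 3 least abundant, the 3 smallest p-values per comparison, all called or without overlap between ages, those the study selected, those antisense to RTL1, those sharing a seed, all locus genes and the 5 most similar other miRNAs. miR-323a-3p, miR-539-3p and miR-376a were set apart after their values were seen. The members and gene lists were chosen with earlier results of these data known. Alternatives were other scalings, no filter, fewer libraries, a replicate block, no fold threshold and added rows of identical sequence. P-values measure the spread between rams.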

Additional observations from a re-analysis of the deposited data

Results flagged for a closer look

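A predicted miRNA named after a family of the cluster appeared outside the sheep-named miRNAs. Its place in the genome was not checked. The family miR-656 is on the list that chose the members, but no sheep-named miRNA of it was listed. A hairpin predicted from the sheep genome and named after human miR-656-3p had 118 counts over the 9 libraries, with 5, 11 and 33 counts at 2 months, 6, 16 and 3 counts at 6 months, and 8, 4 and 32 counts at 12 months. The 3 counts taken as the limit of a count of 0 apply to a single library, and 6-month replicate 3 lay at that limit. With 3 rams per age, single rams were not tested as outliers.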

How the results depend on the processing

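In every setting tried, 0 members were called in each comparison. The replicate block, with which median log2 fold changes were -0.16, -0.03 and -0.08 (2 vs. 6 months, then 6 vs. 12 months and last 2 vs. 12 months), changed no call. The numbers do not pair rams: deviations of same-numbered miRNA libraries correlated between -0.678 and 0.198. When single rams were left out, the medians ranged from -0.44 to 0.00, from -0.15 to 0.19 and from -0.43 to 0.01, the last lowest without 2-month replicate 1. Without a filter they were -0.90 in 2 vs. 6 months and 0.72 in 6 vs. 12 months, where those of all miRNAs were -0.47 and 0.72. Scaled to the known sheep miRNAs, which moved the median of all miRNAs to -0.36 and -0.49, they were -0.35 in 6 vs. 12 months and -0.63 in 2 vs. 12 months. Chosen after seeing the data, leaving out 2-month replicate 1 with 12-month replicate 3 gave -0.48 in 2 vs. 12 months, and leaving out 12-month replicate 1 as well gave -0.40. Of the locus genes, 1 was then called in 2 vs. 6 months with either omission (of 2306 and 2547 mRNAs called in all) and 1 in 2 vs. 12 months with the first (of 1814). As shares of all listed miRNA counts, the cluster held 1.68%, 1.30% and 1.19% at 2, 6 and 12 months. The causes were not tested. The log2 fold changes of the members with the smallest p-values and of those the study selected kept their direction in every setting that fitted them. Those of the named genes were not followed in this way. Depth limits the weak members, since the shallowest library held 295282 counts.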

Other observations

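Rows with names other than sheep carried a little more signal of these families. A total of 106 such rows, from human, rat, mouse or genome-predicted entries, held 623 counts, 0.292% of the 213258 counts of the members. Among rows without a sheep name, 20 had exactly the mature sequence of a member and held 58 counts, and adding these to the members changed no call. Mature members were 19 to 25 bases long, and 83 of 93 had 21 to 23 bases.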
